A study of Homo sapiens with 8 samples.

Results

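The cytosolic ribosomal protein genes encode the proteins of the ribosomes that translate nuclear messenger RNAs. Members were the protein-coding genes of GENCODE release 44 on hg38 whose symbols begin with RPL or RPS and a digit, together with RPSA and RPLP0, RPLP1 and RPLP2, without the RPS6K kinases. The rule gave 82 of 19962 genes on the autosomes and X, of which 32 belong to the small subunit and 50 to the large subunit. The rule read gene symbols and no measured value. The cells were pancreatic progenitors (PPs) made from the established human embryonic stem cell line MEL1, kept in EF6, a DMEM medium with B27, EGF, bFGF and a TGFβ receptor inhibitor. The study's methods name its MEL1 line as MEL1 INS GFP/W, in which GFP is knocked into one allele of the insulin gene, so all 4 libraries would share that allele. The cells were given DMSO, the solvent, or 1 µM I-BET151 for 7 days. I-BET151 blocks the bromodomains with which BET proteins bind acetylated lysines. H3K27ac, the acetylated histone H3 found at active promoters and enhancers, was measured by ChIP-seq in 2 DMSO and 2 I-BET151 libraries, and each library had its own list of peaks. All 4 come from a single cell line, and the labels do not say whether replicates were separate cultures, so p-values measure only the spread between these libraries.

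Each ribosome joins a small subunit, which reads the messenger RNA, to a large subunit, which forms the peptide bonds. Its proteins are needed in nearly equal amounts, and their genes are among the most highly transcribed in growing cells. Most of these genes start transcription at a C within a run of pyrimidines, and the terminal oligopyrimidine tract that this gives the messenger RNA lets mTOR signalling control its translation. Several hold small nucleolar RNA (snoRNA) genes in their introns, and most have many processed pseudogenes.

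The ChIP depth after removal of duplicates was estimated from the fold and p values, the shortest peak of each list and an assumed genome size. It was 7.96 and 9.84 M (mega) reads in DMSO replicates 1 and 2, and 7.76 and 8.04 M in I-BET151 replicates 1 and 2. The I-BET151 lists were shorter, with 12881 and 12306 peaks against 13601 and 14242. Where 4 values are given below without names, they stand for DMSO replicates 1 and 2 and I-BET151 replicates 1 and 2, in that order. All 9 of 9 PP markers examined, such as PDX1 and NKX6-1, had a peak at a start in all 4 libraries. None of the 2 pluripotency, 4 endocrine, 2 liver and 2 neural markers had a peak in any.

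The promoters of the members are shown first, because the position of the start is what the peaks were measured against. RefSeq promoter windows (GRCh38.p14) were matched for 65 of the 82 members. A run of at least 8 pyrimidines reaching within 5 bases of the start was present in 52 of 65 members (80.0%), in 11.3% of 15315 protein-coding promoters and in 5 of 69 mitochondrial ribosomal protein promoters (7.25%). A C stood at the start in 76.9% of members and in 10.7% of all promoters. Below, each window has 40 bases before the start and 30 from the start on, 5′ to 3′, with the longest pyrimidine run near the start in capitals. The first set is 5 members without a peak in any library and RPS12, which had one in DMSO only.
RPL24 (chr3:101686689-101686758, minus strand): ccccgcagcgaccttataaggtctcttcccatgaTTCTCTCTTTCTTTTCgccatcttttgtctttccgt
RPL34 (chr4:108620536-108620605, plus strand): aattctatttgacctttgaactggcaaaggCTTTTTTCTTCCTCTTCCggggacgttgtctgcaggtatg
RPS16 (chr19:39435920-39435989, minus strand): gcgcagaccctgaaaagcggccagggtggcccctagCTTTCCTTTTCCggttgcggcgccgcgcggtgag
RPL13A (chr19:49487568-49487637, plus strand): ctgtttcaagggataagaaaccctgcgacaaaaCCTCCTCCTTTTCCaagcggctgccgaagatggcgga
RPS10 (chr6:34426040-34426109, minus strand): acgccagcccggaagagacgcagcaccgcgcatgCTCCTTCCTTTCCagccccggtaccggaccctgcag
RPS12 (chr6:132814529-132814598, plus strand): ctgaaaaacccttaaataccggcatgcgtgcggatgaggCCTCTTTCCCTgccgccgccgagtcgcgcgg
All 6 carried such a run, of 12 to 18 bases in RPL24, RPL34, RPS16, RPL13A and RPS10, and 11 in RPS12. The second set is 4 members with a peak in all 4 libraries. RPLP1 and RPL10 were called on summit reads in the fit without a block. RPS19 had the most summit reads of any member, and RPL7A had a run of 25 bases.
RPLP1 (chr15:69452778-69452847, plus strand): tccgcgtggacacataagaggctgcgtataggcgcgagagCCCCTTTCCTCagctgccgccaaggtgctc
RPL10 (chrX:154398337-154398406, plus strand): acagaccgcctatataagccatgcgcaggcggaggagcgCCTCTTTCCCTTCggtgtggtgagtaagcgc
RPS19 (chr19:41860215-41860284, plus strand): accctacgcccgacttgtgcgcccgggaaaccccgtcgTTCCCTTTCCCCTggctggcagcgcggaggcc
RPL7A (chr9:133348178-133348247, plus strand): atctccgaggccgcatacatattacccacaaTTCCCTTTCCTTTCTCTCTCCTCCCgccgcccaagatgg
The third set is RPL10L and RPS27L, paralogs in which no run longer than 2 bases lay near the start. The same held at some core genes, such as RPL15 and RPS15.
RPL10L (chr14:46651752-46651821, minus strand): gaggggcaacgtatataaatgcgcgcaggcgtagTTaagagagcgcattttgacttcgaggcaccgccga
RPS27L (chr15:63157448-63157517, minus strand): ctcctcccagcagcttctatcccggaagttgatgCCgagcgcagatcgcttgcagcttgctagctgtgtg
A peak in all 4 libraries was found for 43 of the 52 members with the run (82.7%) and for 12 of the 13 without (92.3%). Members with peaks in all 4 libraries were thus common with and without the run. Which members lack the run depends on the RefSeq start used. At RPL6 and RPS29, counted as without, that start lay 320 and 12330 bp from the canonical start. At RPL15 and RPL27, also counted as without, a longer pyrimidine run lay farther downstream.

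Short motifs were also searched on both strands of each window, from 250 bases before to 50 after the start. The ETS core CCGGAAG, whose reverse strand can overlap a pyrimidine run, was present in 33.8% of member windows and 14.7% of all. The SP1 box GGGCGG was present in 58.5% and 61.8%, the TATA box TATAAA in 9.23% and 9.42%, the E-box CACGTG in 4.62% and 8.85%, and the YY1 element AAGATGGC in 9.23% and 4.16%. The NRF1 motif was present in 12.3% of members and 8.89% of all, and the ZBTB33 core in 6.15% and 0.686%. In mitochondrial ribosomal protein windows the ETS core was present in 43.5% and the YY1 element in 30.4%, both above the members. The SP1 box, E-box and NRF1 motif were also more frequent there than in members. The TATA box and ZBTB33 core were less frequent, at 4.35% and 1.45%. A high share with the ETS core was therefore not particular to the members. These are descriptions of letters, and no binding was measured.

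Most members carried an H3K27ac peak within 3 kb of a start. The number with a peak was 73 and 71 in DMSO replicates 1 and 2, and 71 and 67 in I-BET151 replicates 1 and 2. These are 89.0, 86.6, 86.6 and 81.7% of members, against 52.7, 53.7, 51.4 and 50.5% of all protein-coding genes. A peak was present in all 4 libraries for 66 members (80.5%) and for 47.3% of all genes. The mean was 72.00 ± 1.41 members in DMSO and 69.00 ± 2.83 in I-BET151 (SD, n = 2), and the groups met at 71. With 2 libraries against 2, an exact permutation test cannot give a two-sided p below 0.33.

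No library had a peak at 9 members, namely RPL24, RPL34, RPL13A, RPL35A, RPL36A, RPL10L, RPL39L, RPS10 and RPS16. RPL10L and RPL39L are paralogs known for expression in testis. The other 7 are core proteins of every ribosome, among them RPL24, which forms a bridge between the subunits. Of the 28 members that host snoRNA genes, 22 had a peak in all 4 libraries (78.6%), 5 in some and 1 in none. Of the 54 others, 44 had a peak in all 4 (81.5%), 2 in some and 8 in none. The 9 had a median of 14.0 annotated pseudogenes (0 to 52), and the 66 had a median of 9.50 (0 to 133). Reads that align equally well to a gene and its pseudogenes can be lost or misplaced, and their part in the missing peaks was not tested. A missing peak may still hide acetylation below the caller's threshold.

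The other 7 members had a peak in some libraries. RPS12 had one in both DMSO libraries, covering 374 and 312 bp at folds of 9.63 and 13.4, and none in either I-BET151 library. RPL37 had a peak of 292 bp in DMSO replicate 1 only. I-BET151 replicate 2 alone lacked a peak at 4 members, RPS26, RPS20, RPL23 and RPL30.

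ChIP reads at the summit were low at several of these members. RPS26 had 4.40 and 4.78 reads per M in DMSO and 4.51 in I-BET151 replicate 1, RPL23 had 9.30, 9.35 and 7.99, and RPS12 had 9.17 and 8.84 in DMSO. The median over members with a peak was 25.6 and 26.0 reads per M in DMSO and 21.5 and 24.9 in I-BET151. The 3 named here thus lay well below that median.

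**Figure D1:**
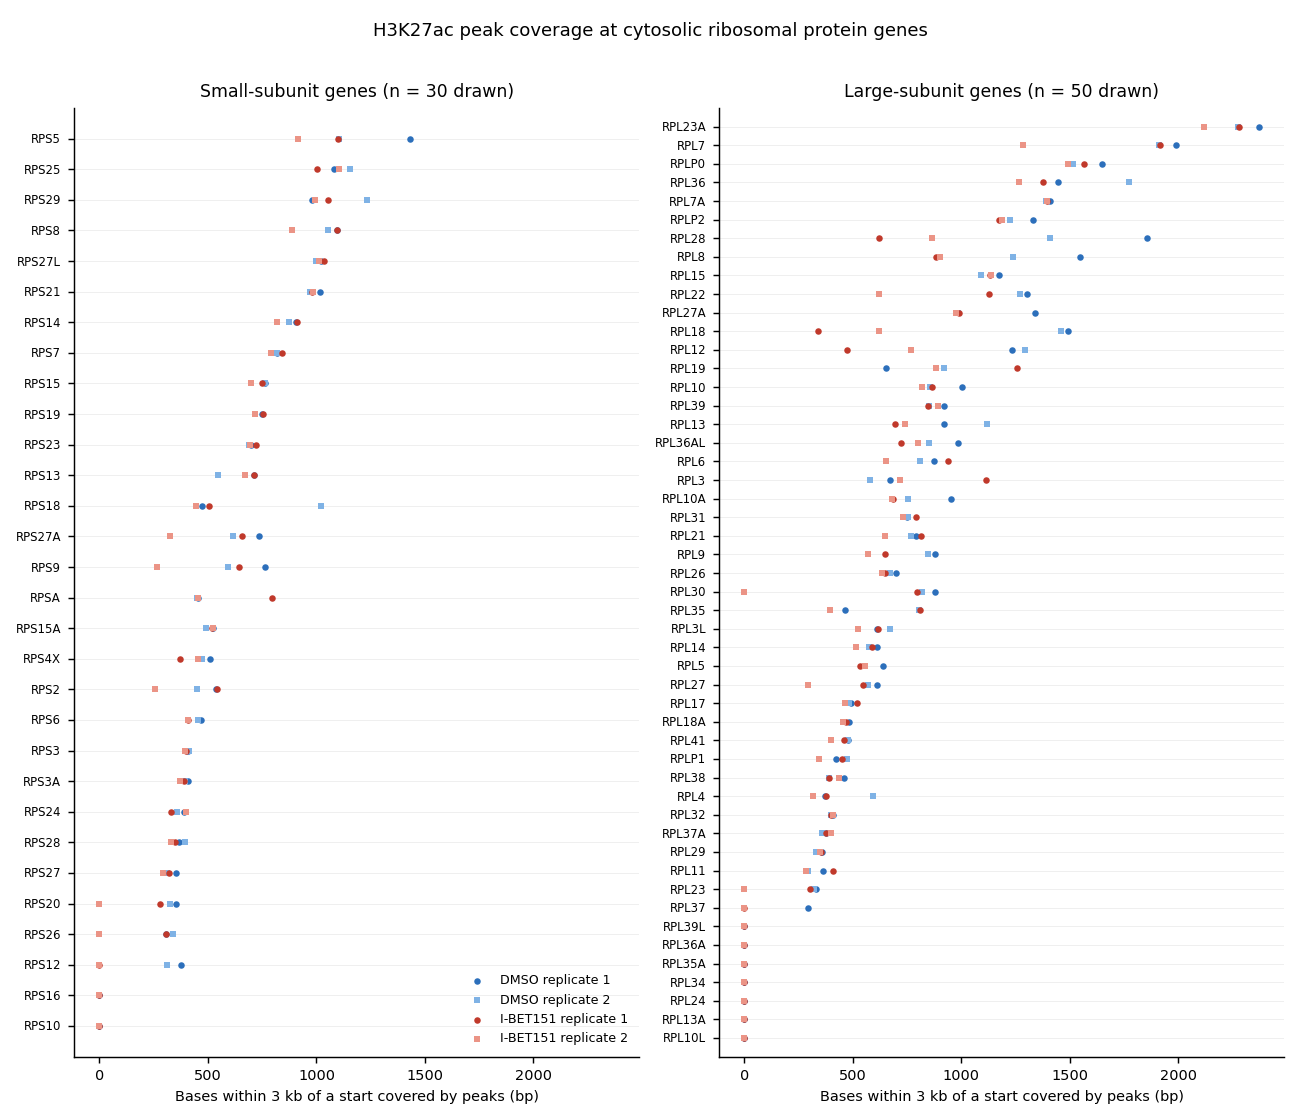
Bases within 3 kb of a start that were covered by peaks (x axis, bp) for 30 small-subunit and 50 large-subunit genes (y axis, ordered by mean), with 1 point per library and 0 where no peak was called. RPL23A has the longest coverage at 2117 to 2370 bp, and the 9 genes without a peak lie at 0 in all libraries.

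Where peaks were present, coverage at the median member was below that at the median gene with a peak. The median covered length over members with a peak was 713 and 715 bp in DMSO, against 657 and 633 bp in I-BET151, and over all genes with a peak it was 824, 805, 788 and 757 bp. The median member lay at the 41.4 and 42.9 percentile of covered length in DMSO and at the 39.1 and 38.9 percentile in I-BET151. In all 4 libraries, then, the median member lay below the middle of the genes with a peak. Small-subunit members lay at 32.8, 27.7, 38.1 and 20.8, and large-subunit members at 47.5, 50.1, 42.1 and 40.7. Ribosome biogenesis factors lay at 37.0, 36.6, 41.3 and 39.4, so such a position was not particular to the members. Translation factors lay at 59.6, 53.7, 57.4 and 49.1. Mitochondrial ribosomal protein genes, which serve a separate ribosome, covered a median of 755, 716, 710 and 636 bp in the same libraries.

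Covered length varied severalfold among the 66 members with a peak in every library. The longest were RPL23A, RPL7, RPLP0, RPL36 and RPL7A, all of the large subunit. RPL23A, which lies near the exit of the peptide tunnel, had 2370 and 2275 bp in DMSO, against 2279 and 2117 bp in I-BET151. RPLP0, the base of the stalk that recruits translation factors, had 1648, 1512, 1563 and 1489 bp. RPL7A had 1406, 1388, 1396 and 1395 bp, and its 4 libraries lay close together.

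The shortest were RPS27, RPL11, RPL29, RPS28 and RPS24. RPL11, which with RPL5 and the 5S RNA can bind MDM2, had 360, 292, 409 and 285 bp, and the groups overlapped. RPS28 had 368 and 393 bp in DMSO, against 350 and 329 bp in I-BET151. The 2 other stalk proteins differed from each other, with 421, 471, 452 and 346 bp at RPLP1 and 1328, 1226, 1171 and 1187 bp at RPLP2. A peak within 3 kb can belong to a neighbour, and at RPLP2 and RPLP0 the strongest summit was nearer to the start of PIDD1 and of GCN1. At RPL36 it was nearer to that of HSD11B1L in 3 of the 4 libraries. Over all members, the strongest summit was nearest to the member's own start in every calling library for 56 of 73 and in none for 10. Counting only peaks nearest to the member's own start, 65, 62, 61 and 58 members had a peak.

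The coverage lay mainly after the start. Among the 66 members, the point covered most often was 250 bp downstream of the canonical start, where 78.8 and 78.8% had a peak in DMSO and 77.3 and 74.2% in I-BET151. Just before the start, at 50 bp upstream, 31.8, 34.8, 30.3 and 25.8% were covered, against 55.0, 54.2, 50.5 and 49.1% of the 9369 other genes. Farther into the gene, at 550 bp, 27.3, 22.7, 22.7 and 18.2% of members and 46.9, 45.7, 43.8 and 42.1% of other genes were covered. At 1050 bp no member was covered in any library, where 8.05 to 9.30% of other genes were. In each of the 4 libraries a smaller share of members than of other genes was covered at these 3 points. Farther upstream, at 550 bp, the order was the opposite in each library, with 28.8, 27.3, 27.3 and 25.8% of members and 26.0, 25.3, 25.0 and 23.4% of other genes covered.

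**Figure D2:**
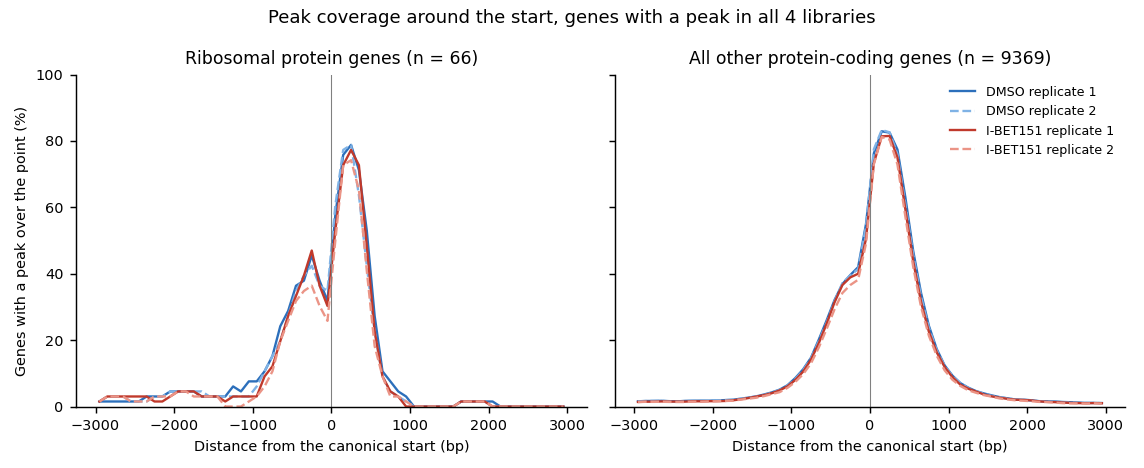
Share of genes with a peak over each point (y axis, %) by distance from the canonical start (x axis, bp, downstream positive), for the 66 ribosomal protein genes and the 9369 other genes with a peak in all 4 libraries, with 1 line per library. The ribosomal protein genes dip to 25.8 to 34.8% at 50 bp upstream and rise to 74.2 to 78.8% at 250 bp downstream.

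Fold enrichment over local input was high at the members, while ChIP reads at the summit were not. Fold values are the authors' own, as MACS2 wrote them, for the peak with the smallest p near each gene. The median fold was 8.15 and 8.62 in DMSO and 7.93 and 8.04 in I-BET151, against 6.12, 6.73, 6.75 and 6.84 over all genes with a peak. The median member thus lay at the 76.3, 73.9, 64.1 and 63.9 percentile. Related lists also lay above the middle, with translation factors at 62.4, 61.9, 61.4 and 67.2. Mitochondrial ribosomal protein genes lay at 55.7, 57.0, 59.7 and 63.2, and ribosome biogenesis factors at 54.7, 61.6, 56.9 and 63.1. Summit reads placed the median member at the 37.2, 44.7, 33.2 and 37.3 percentile. On that measure ribosome biogenesis factors lay at 32.3, 29.6, 32.3 and 34.5, and mitochondrial ribosomal protein genes at 43.2, 38.2, 48.9 and 44.2. Translation factors lay at 58.8, 62.7, 63.6 and 63.2.

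The local input under the summits moved with this difference. The median input at members' summits was 28.2, 26.4, 31.5 and 32.5 times the input's genome-wide level, against 49.0, 41.5, 42.0 and 44.7 times over all genes with a peak. That placed the median member at the 19.9, 20.4, 27.4 and 27.1 percentile of input. Related lists also lay below the middle, with mitochondrial ribosomal protein genes at 28.5, 37.7, 32.4 and 23.7. Ribosome biogenesis factors lay at 35.0, 27.6, 36.3 and 28.7, and translation factors at 44.5, 49.2, 43.2 and 42.9. The members' inputs amount to few reads, with a median of 8.62, 7, 9 and 8 reads per summit. Single folds varied widely between replicates. RPLP1 had folds of 4.45 and 9.61 in DMSO and 20.6 and 3.93 in I-BET151, for example. The part of the input in the members' high folds was not tested beyond these values.

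**Figure D3:**
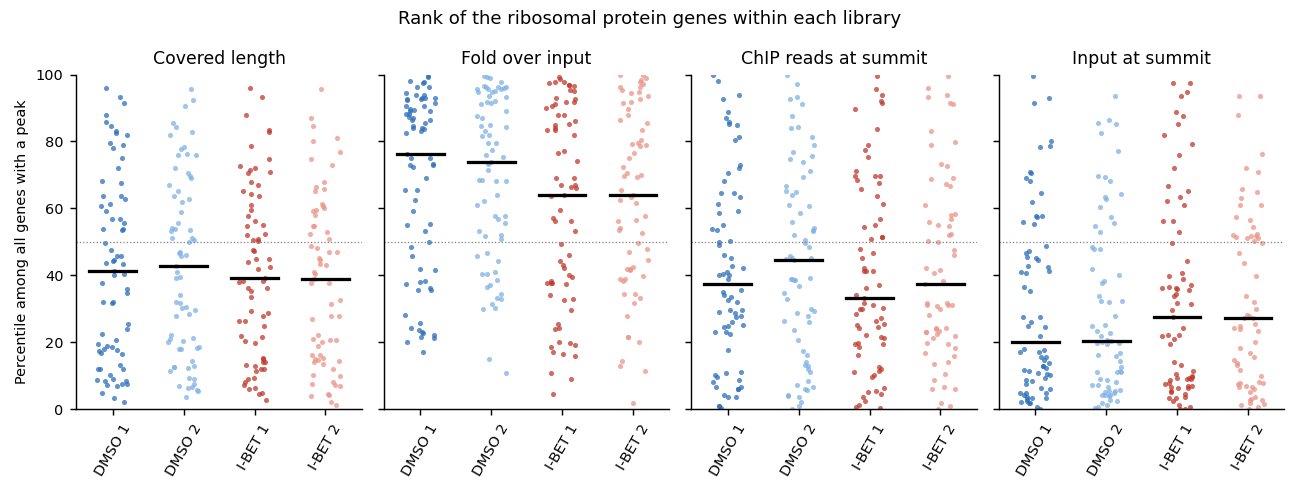
Percentile of each ribosomal protein gene among all genes with a peak in the same library (y axis) for covered length, fold over input, ChIP reads at the summit and input at the summit, by library (x axis), with 1 point per gene and a bar at the median. The median lies at 63.9 to 76.3 for fold and at 19.9 to 27.4 for input.

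Among single members, mean fold over the 4 libraries ran from 3.42 at RPS2 to 18.5 at RPL21. RPL21 had folds of 24.4, 20.6, 17.5 and 11.3, and RPS18 had 10.7, 13.6, 17.8 and 27.8. RPL32, RPL9 and RPL39 followed, with means of 16.8, 14.6 and 14.5. RPS2, which lies at the mRNA entry of the small subunit, had the lowest folds, at 4.02, 3.91, 3.01 and 2.74. RPS28, RPL26, RPL36 and RPL8 were next, with means of 5.16, 5.35, 5.37 and 5.52. RPS19, a gene mutated in Diamond-Blackfan anaemia, had the most summit reads, with 59.2 and 47.3 per M reads in DMSO and 58.4 and 57.2 in I-BET151.

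To ask whether I-BET151 altered H3K27ac at these genes, 3 measures were compared. The first was covered length. It was shorter in both I-BET151 libraries than in both DMSO libraries at 26 of 73 members (35.6%), where the same held for 37.1% of all genes with a peak. It was longer at 2 members, RPL3 and RPL37A (2.74%), against 14.0% of all genes, and the groups overlapped at 45. The share that was shorter was therefore close to the background. With 1 library left out the rule compares 1 library with 2, so these counts can only rise. The share of all genes under that looser rule is not given here. Without DMSO replicate 1, 32 members were shorter and 15 longer. Without DMSO replicate 2, these were 47 and 4. Without I-BET151 replicate 1 they were 50 and 4, and without I-BET151 replicate 2, 31 and 18.

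The largest falls in covered length were at RPL18, RPL28, RPL12, RPL8 and RPL22, all large-subunit genes. RPL18 had 1492 and 1461 bp in DMSO, against 341 and 619 bp in I-BET151. RPL28 had 1855 and 1409 bp in DMSO, against 622 and 865 bp in I-BET151. RPL12, part of the stalk base, had 1232 and 1292 bp in DMSO, against 474 and 768 bp in I-BET151. The groups did not overlap at any of these 3. RPL8, a protein near the peptidyl transferase centre, had 1546, 1240, 885 and 902 bp, and RPL22 had 1304, 1272, 1127 and 619 bp. The strongest summit was nearer to the start of SPHK2 at RPL18 and of TMEM238 at RPL28. Within 1 kb of a start the difference between group means was −311.5 bp at RPL18 in place of −996.5 bp, −521.5 bp at RPL28 in place of −888.5 bp and −44.0 bp at RPL22 in place of −415.0 bp.

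RPL3, RPL19, RPSA and RPS13 were among the members with the largest increases. RPL3, which reaches towards the peptidyl transferase centre, had 672 and 581 bp in DMSO, against 1112 and 719 bp in I-BET151. RPL19 had 651, 921, 1258 and 881 bp and RPSA, known also as the laminin receptor, had 454, 451, 795 and 452 bp, so that the groups overlapped at both and I-BET151 replicate 1 was the highest. Within 1 kb the difference at RPL19 was −46.0 bp in place of 283.5 bp. RPL37A, the other member without overlap, had 377, 358, 378 and 401 bp.

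limma, fitted to log2 covered length across 9435 genes with a peak in all 4 libraries, called 0 of 66 members at an adjusted p under 0.05, against 3.28% of all genes tested. At an unadjusted p under 0.05 it gave 6 members, all lower in I-BET151 and all of the large subunit, RPL18, RPL9, RPL8, RPL28, RPL12 and RPL13. These are 9.09% of the members, against 16.7% of all genes tested. RPL18 changed by −1.68 ± 0.32 (SE) on the log2 scale, with adjusted p = 0.11, and RPL28 by −1.14 ± 0.23, with adjusted p = 0.12. The median change was −0.10 over the members and −0.05 over all genes tested.

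The second measure was fold enrichment. limma on log2 fold called 0 of 66 members and 0.0530% of all genes tested, and 4 members (6.06%) had an unadjusted p under 0.05, against 9.93% of all genes. On simulated data this fit recovered none of the changes put in, so its 0 calls carry no information on whether members changed. RPS4X had folds of 9.06 and 14.5 in DMSO and 3.51 and 7.19 in I-BET151, a log2 change of −1.19 ± 0.40 (SE; adjusted p = 0.38), which was the largest of the 66. RPL12 changed by −0.83, RPL27 by −0.78 and RPL6 by −0.75, and RPS29 by 0.91, RPS18 by 0.88 and RPL39 by 0.78, each with an adjusted p above 0.05. The summit was nearer to the start of LRR1 at RPS29 and of VPS52 at RPS18. The median change was −0.09 over members and 0.07 over all genes tested.

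The third measure was ChIP reads at the summit, in reads per M. limma on log2 summit reads called 9 of 63 members, 6 lower and 3 higher in I-BET151, against 11.4% of all genes lower and 6.45% higher. All 9 are large-subunit genes, of 38 tested, and 0 of 25 small-subunit genes were called, 1 of which had an unadjusted p under 0.05. Whether the subunits differed was not tested. The median change was −0.09 over members and −0.01 over all genes tested.

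Among the 6 that fell, RPL6 had 26.9 and 26.1 reads per M in DMSO and 13.9 and 19.5 in I-BET151, a log2 change of −0.68 ± 0.14 (SE; adjusted p = 1.5e-05). RPL36 had 26.8, 24.0, 12.9 and 22.3, a change of −0.58 ± 0.14 (adjusted p = 0.00039). In both DMSO libraries and I-BET151 replicate 2 the strongest summit lay far upstream of the canonical start and nearer to the start of a neighbour, at −9725 to −9666 bp and PTPN11 for RPL6 and at −9472 to −9432 bp and HSD11B1L for RPL36. In I-BET151 replicate 1, the lowest at both, it lay nearest to a start of the member itself, at −9171 bp for RPL6 and 414 bp for RPL36. These values therefore do not follow a single summit. Without I-BET151 replicate 1 the change was −0.44 at RPL6 (adjusted p = 0.040) and −0.19 at RPL36 (adjusted p = 0.65), and with the peak with the most reads it was −0.52 (adjusted p = 0.00041) and −0.23 (adjusted p = 0.20). RPLP1, a stalk protein, had 27.5 and 26.2 in DMSO and 20.0 and 20.3 in I-BET151, a change of −0.42 ± 0.13 (adjusted p = 0.012). Its 4 summits lay within 30 bp of each other and nearest to its own start. RPL28, RPL8 and RPL36AL changed by −0.41, −0.39 and −0.35, with summits up to 683 bp apart at RPL8, and the summit was nearer to the start of TMEM238 at RPL28 and of MGAT2 at RPL36AL. Without I-BET151 replicate 1 these changes were −0.23, −0.25 and −0.19 (adjusted p = 0.55, 0.42 and 0.75).

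Among the 3 that rose, RPL4, whose protein lines the peptide tunnel, had 11.8 and 12.1 reads per M in DMSO and 18.6 and 17.0 in I-BET151, a change of 0.57 ± 0.16 (adjusted p = 0.0049). Its summit was nearer to the start of ZWILCH. RPL10, which is added late to the large subunit and is needed for joining of the subunits, had 23.7 and 22.8 in DMSO and 31.1 and 29.4 in I-BET151, a change of 0.38 ± 0.13 (adjusted p = 0.021), with summits within 39 bp at its own start. RPL15 had 25.0, 31.9, 34.3 and 37.9, a change of 0.35 ± 0.13 (adjusted p = 0.032), and its summit was nearest to its own start in DMSO replicate 1 only, and to the start of NKIRAS1 in the other 3 libraries, with summits up to 712 bp apart. With the peak with the most reads the change at RPL15 was 0.05 (adjusted p = 0.84), and without DMSO replicate 1 it was 0.18 (adjusted p = 0.39). At each of the 3, both I-BET151 libraries lay above both DMSO libraries. The 3 were picked by a call on these same values, so that order adds no separate support.

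Of the 9 calls, 5 (RPL10, RPL28, RPL36AL, RPL4 and RPLP1) were made when only genes whose 4 summits lay within 300 bp were fitted, of 53 members. Over all 7667 genes that fit called 451 higher and 873 lower. Leaving out 1 library leaves 1 library in a group, so no conclusion is drawn from the calls in those fits. Without DMSO replicates 1 and 2 in turn, the median change was −0.00 and −0.14 over members and 0.06 and −0.08 over all genes. Without I-BET151 replicates 1 and 2 it was −0.04 and −0.10 over members and 0.03 and −0.04 over all genes. In the same order RPL6 changed by −0.66, −0.70, −0.44 and −0.93, and RPL4 by 0.56, 0.59, 0.51 and 0.64. RPLP1 had adjusted p = 0.11, 0.067 and 0.071 without DMSO replicate 1, DMSO replicate 2 and I-BET151 replicate 1, and RPL10 had 0.058, 0.14 and 0.18. With each library centred on its median, 13 members were called, 6 higher and 7 lower, and over all genes the calls went from 589 higher and 1045 lower to 2002 higher and 1201 lower.

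**Figure D4:**
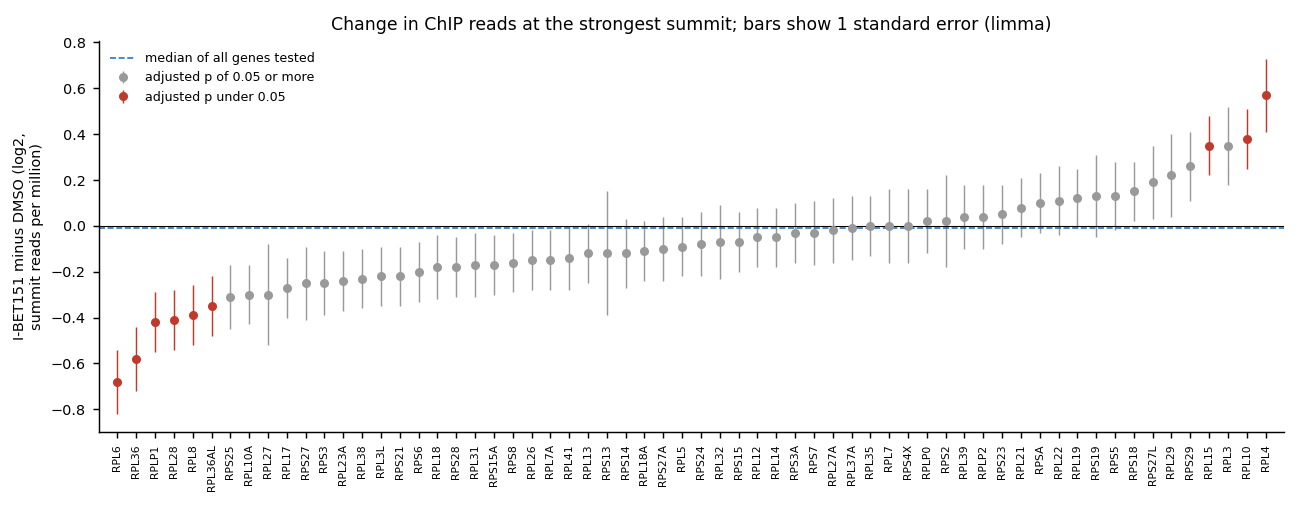
Change in ChIP reads per M at the strongest summit (y axis, I-BET151 minus DMSO, log2) for 62 of the 63 ribosomal protein genes tested (x axis, ordered by change), with bars of 1 standard error and calls at an adjusted p under 0.05 in red. RPL6 lies lowest at −0.68 and RPL4 highest at 0.57, and the dashed line marks the median of all genes tested at −0.01.

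The paralogs with an L suffix were examined one by one. RPL10L and RPL39L had no peak. RPL3L, known from heart and skeletal muscle, had peaks of 609, 669, 614 and 522 bp, but each strongest summit was nearer to the start of NDUFB10. RPS27L, a p53-responsive paralog of RPS27, had 1019, 996, 1035 and 1014 bp and 48.0, 41.1, 50.0 and 51.4 summit reads per M at its own start, where RPS27 had 355, 313, 321 and 293 bp and 18.0, 14.4, 13.7 and 13.4 reads per M. RPL36AL had 984, 850, 722 and 798 bp, and its paralog RPL36A had no peak.

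The snoRNA hosts among the members were described in the same way. The 28 members that host a total of 60 snoRNA genes had a median input of 22.1, 20.8, 17.5 and 25.4 times the genome-wide level, against 42.5, 30.2, 35.0 and 36.5 times in the 54 other members. Their median fold was 9.34, 9.14, 9.39 and 9.66, against 7.92, 8.14, 7.44 and 7.80. Hosts thus had the lower input and the higher fold in each library. Their median summit reads were 23.9, 23.7, 24.1 and 25.1 per M reads, against 26.8, 26.2, 20.5 and 23.0, with no order shared by all 4 libraries.

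Other parts of the translation machinery were counted in the same way. A peak was present in all 4 libraries for 60 of 78 mitochondrial ribosomal protein genes, 29 of 33 translation factors and 24 of 30 ribosome biogenesis factors. This held for 80.5% of members and 47.3% of all genes. limma on summit reads called 1 of 54, 2 of 28 and 1 of 22 of them (1.85, 7.14 and 4.55%), all lower in I-BET151. It called 14.3% of members and 17.9% of all genes tested, so each of these lists and the members lay below the share of all genes. limma on covered length called 1 of 60, 1 of 29 and 0 of 24, against 3.28% of all genes tested. Of the 24, 0 had an unadjusted p under 0.05, against 16.7% of all genes. limma on fold called none in the 3 lists, against 0.0530% of all genes. It gave 2, 1 and 1 genes at an unadjusted p under 0.05, against 9.93% of all genes.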

How the data were processed

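H3K27ac ChIP-seq peak lists of 4 libraries were analysed, 2 of DMSO and 2 of I-BET151, grouped by library title. The 4 input libraries were not analysed here as separate samples. Per the study's methods and the labels, the authors aligned reads to hg38 with Bowtie2 2.2.5, removed duplicates and mitochondrial reads, and called peaks in each library with MACS2 2.1.2. The deposited lists hold, for every summit, the fold (a ratio over local input), and −log10 of the p-value and q-value. The score column deposited by the authors was not used. Duplicate removal caps the height of a peak, and a fixed threshold leaves out weak acetylation.

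Whole reads were recovered from the fold and the p-value, which MACS2 derives from the same read number and input level. A solution was found for 97.8 to 98.5% of peaks, and of peaks with a single solution 100% were whole reads within 0.02. ChIP depth was estimated from the lowest input level recovered in each list. The estimate took the shortest peak, 272, 247, 254 and 249 bp, as the fragment length, and an assumed genome size. Reads per M rest on these assumptions, which were not tested. The estimate was 7.76 to 9.84 M (mega) reads, so a share or call rests on that number of reads, and no interval is given because the lists hold only peaks. Starts were all transcription starts of protein-coding genes (GENCODE release 44). Covered length is the number of bases within 3 kb of a start inside peaks. The strongest peak of a gene is the one with the smallest p. limma 3.58.1 in R 4.3.3 was fitted, without a block, to log2 covered length and log2 fold of genes with a peak in all 4 libraries, with Benjamini-Hochberg adjustment over all genes tested, and checked on simulated data, where the fit of covered length recovered part of the changes put in and the fit of fold none. Summit reads per M were also fitted in place of fold. Python 3.11.15, pandas 2.3.3 and numpy 2.4.6 were used.

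Members and lists were chosen with earlier results of these data known. Members were named if they lacked a peak in a library, were among the 5 highest or lowest in covered length, fold or change, or passed a fit. Paralogs with an L suffix and stalk proteins were also named. RPS19 and the members called on summit reads alone were chosen after their values were seen. Alternatives were the window, stricter or equal-sized lists, other starts, added paralogs, centring, a block and leaving out each library. Chosen after seeing the data were the use of only peaks nearest to the member's own start, the peak with the most reads, summits within 300 bp, and the repeats of the summit-read fit. A few genes are counted in the totals but not reported here by name.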

Additional observations from a re-analysis of the deposited data

How the results depend on the processing

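Fits of fold and of covered length called 0 members under each alternative run, except that summit reads in place of fold called 9, and 7 with the tallest peak by reads. Over all genes those fits of summit reads called 589 higher and 1045 lower, and 591 higher and 1141 lower with the tallest peak. On simulated data the fit of fold recovered none of the changes put in and that of covered length part of them, so the counts of 0 say nothing about stability. The I-BET151 minus DMSO differences in members with a peak, covered length and fold kept their direction under each alternative. In median log2 fold the difference was −0.09, and it was −0.13 with 1 kb, −0.01 at −log10 q 10 or more, −0.11 with equal numbers of top-ranked peaks, −0.10 from the 5′ end only, −0.17 centred and −0.11 in summit reads. In median covered length it was −83.0 bp, and −47.0 bp with equal numbers of peaks. It was −32.5 bp with peaks nearest to the own start, and −106.8 to −59.2 bp with 1 library left out. These are differences between medians over members. The median of the changes at single members was −46.8 bp, against −27.5 bp over all genes with a peak in all 4 libraries. The median percentile of covered length was 40.6, and it was 43.5 with 5 kb, 35.0 with the stricter q, 38.4 with equal numbers, and 39.8 to 41.2 with 1 library left out. With 1 library left out, members with longer coverage numbered 4 to 18, from 2, and with shorter coverage 31 to 50, from 26. Comparing 1 library with 2 is a looser rule, under which these counts can only rise. Calls on summit reads numbered 9, 2 to 11 with 1 library left out, and 5 with summits within 300 bp. The fits with 1 library left out have 1 library in a group, so no conclusion is drawn from their range of calls. Over all genes the numbers called also differed between those fits. At RPL22 covered length rose by 187.5 bp with equal numbers of peaks, in place of a change of −415.0 bp. Apart from the counts under the looser rule, the cause of these shifts was not tested.

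The labels do not say whether same-numbered libraries share a culture or day. Their deviations correlated at 0.0816 in covered length and 0.0537 in summit reads across genes. With the replicate number as a block the fits of fold and covered length called 0 members, and the differences in fold and length were −0.09 and −83.0 bp. On summit reads that block gave calls at 3 of 63 members, and at 294 higher and 582 lower of all 9133 genes. The 3 were RPL36, RPL4 and RPL6. RPLP1 and RPL10 were not called in that limma fit, with adjusted p = 0.083 and 0.17. Few reads of input per summit limit the precision of fold.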

Other observations

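FAU and RACK1 are ribosomal components with symbols outside the rule. FAU, which encodes a ubiquitin-like protein fused to RPS30, covered 749 and 719 bp in DMSO, against 603 and 668 bp in I-BET151, without overlap between groups. RACK1, a scaffold on the small subunit, covered 2339, 2270, 2317 and 2071 bp, within the range of the longest members. Their summit reads changed by −0.17 and −0.28 on the log2 scale (limma, adjusted p = 0.56 and 0.11).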
